A study of Mus musculus with 6 samples.

Results

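The members are 41 genes of the cytosolic and mitochondrial heat shock chaperones, with their partner proteins and the heat shock factors, described in mouse Melb-a cells given the BRD9 inhibitor iBRD9 or the vehicle DMSO. They were chosen by symbol, from a list drawn up with results of this same comparison in view. Hsp90aa1 and Hspa12a were known to have some of its largest rises, so their values are given as a description with no test. The list and the calls of the other members describe these libraries and are not independent evidence. Of the 35275 gene rows, 40 matched a member by symbol. Hspa14 matched none and was not analysed here. A filter on low counts was passed by 38 members, with Hspa1a and Hspb1 below it.

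Chaperones hold unfolded or newly made proteins and help them reach their shape. In the cytosol HSP70 binds exposed stretches of a chain, HSP40 proteins bring the client and trigger ATP use, HSP110 proteins exchange the nucleotide, and HSP90 receives selected clients such as kinases and steroid receptors. Mitochondria have their own HSP70, HSP90, HSP40 and a barrel-shaped chaperonin, while the ring-shaped TRiC/CCT folds actin and tubulin in the cytosol. When unfolded protein builds up, heat shock factor 1 binds DNA elements made of repeated GAA units in alternating orientation and raises transcription of many of these genes.

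RNA-seq read counts came from 3 iBRD9 and 3 DMSO libraries of Melb-a, an immortal line of C57BL/6J mouse skin melanoblasts, the precursors of pigment cells. The iBRD9 cells received 10 µM of the compound for 48 h and the DMSO cells the vehicle for the same time. Both groups were in a differentiation medium, DMEM with 10% serum, 2 nM of the melanocortin analog NDP-alpha-MSH and 200 nM of the phorbol ester PMA. The samples are called independent in the series text and come from 1 line, and 1 compound at 1 dose cannot tell an effect through BRD9 apart from other effects of iBRD9.

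Libraries held 22846391 to 29680952 counts. The melanocyte lineage markers summed to 15099 to 16631 CPM with iBRD9 and 15823 to 17935 CPM with DMSO (8 of 8 genes detected and tested), sums led by Dct and Tyrp1. Within that list 1 gene rose (Dct, log2 fold change 0.31), 4 fell (Tyr -2.61, Sox10 -0.92, Tyrp1 -0.66 and Mlana -0.62) and 3 did not pass. CPM here are counts scaled to equal library totals and corrected with edgeR's TMM factors. Of markers of other cells, Krt5, Krt1, Ptprc and Cd3e were at 0 in all libraries, keratinocyte markers summed to 3.64 to 4.35 CPM with iBRD9 and 3.50 to 4.21 CPM with DMSO, and leukocyte markers to 16.5 to 17.9 CPM with iBRD9 and 17.9 to 22.8 CPM with DMSO. Of the leukocyte markers Csf1r rose (2.60), Cd68 fell (-0.69), Lyz2 did not pass and the rest were too low for a test. Endothelial markers summed to 4.42 to 6.16 CPM with iBRD9 and 1.46 to 1.60 CPM with DMSO. That sum was mostly Kdr, which rose (2.07), while Pecam1, Cdh5 and Tek were too low for a test. Fibroblast markers summed to 132 to 146 CPM with iBRD9 and 76.1 to 100.4 CPM with DMSO. Of the fibroblast markers Dcn (1.23) and Col1a1 (2.36) rose, Col1a2 fell (-1.95), 3 did not pass and Col3a1 was too low for a test. Schwann cell markers summed to 65.8 to 70.5 CPM with iBRD9 and 260.0 to 357 CPM with DMSO. The part of these lists in the results below was not tested. In such bulk libraries, fewer cells of a type and less RNA per cell cannot be told apart.

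Members moved in both directions. By edgeR's quasi-likelihood test over all 13602 tested genes, with a call at a Benjamini-Hochberg adjusted p under 0.05, 13 of 38 tested members rose with iBRD9, where 29.8% of all tested genes rose. Another 14 fell, where 30.9% of all tested genes fell, and 11 did not pass. The 13 include Hsp90aa1 and Hspa12a, described with no test, as do the other counts over all tested members. The balance depended on the scaling: with library size alone 17 members rose and 11 fell, where 36.8% of all tested genes rose and 24.9% fell. With Hsp90aa1 and Hspa12a included, the members called in either direction were 71.1%, beside 60.7% of all tested genes. Leaving aside Hsp90aa1 and Hspa12a, 11 of the other 36 rose, 14 fell, and 6 were called at a change of at least 2-fold. Calls of that size were made for 14.9% of all tested genes. Since the list was drawn up with this comparison in view, nothing is read from these shares. The same holds for the counts by family and by list below. The iBRD9 and DMSO libraries did not overlap in 30 of 38 members, beside 68.0% of all tested genes. Without Hsp90aa1 and Hspa12a this held in 28 of 36. The members' median log2 fold change was 0.018, beside 0.0071 over all tested genes. Summed over the 40 matched members, the level was 11769 ± 517 CPM with iBRD9 and 11277 ± 44.7 CPM with DMSO (SD, n = 3), and without Hsp90aa1 and Hspa12a it was 10957 ± 462 CPM with iBRD9 and 11247 ± 41.5 CPM with DMSO.

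**Figure D1:**
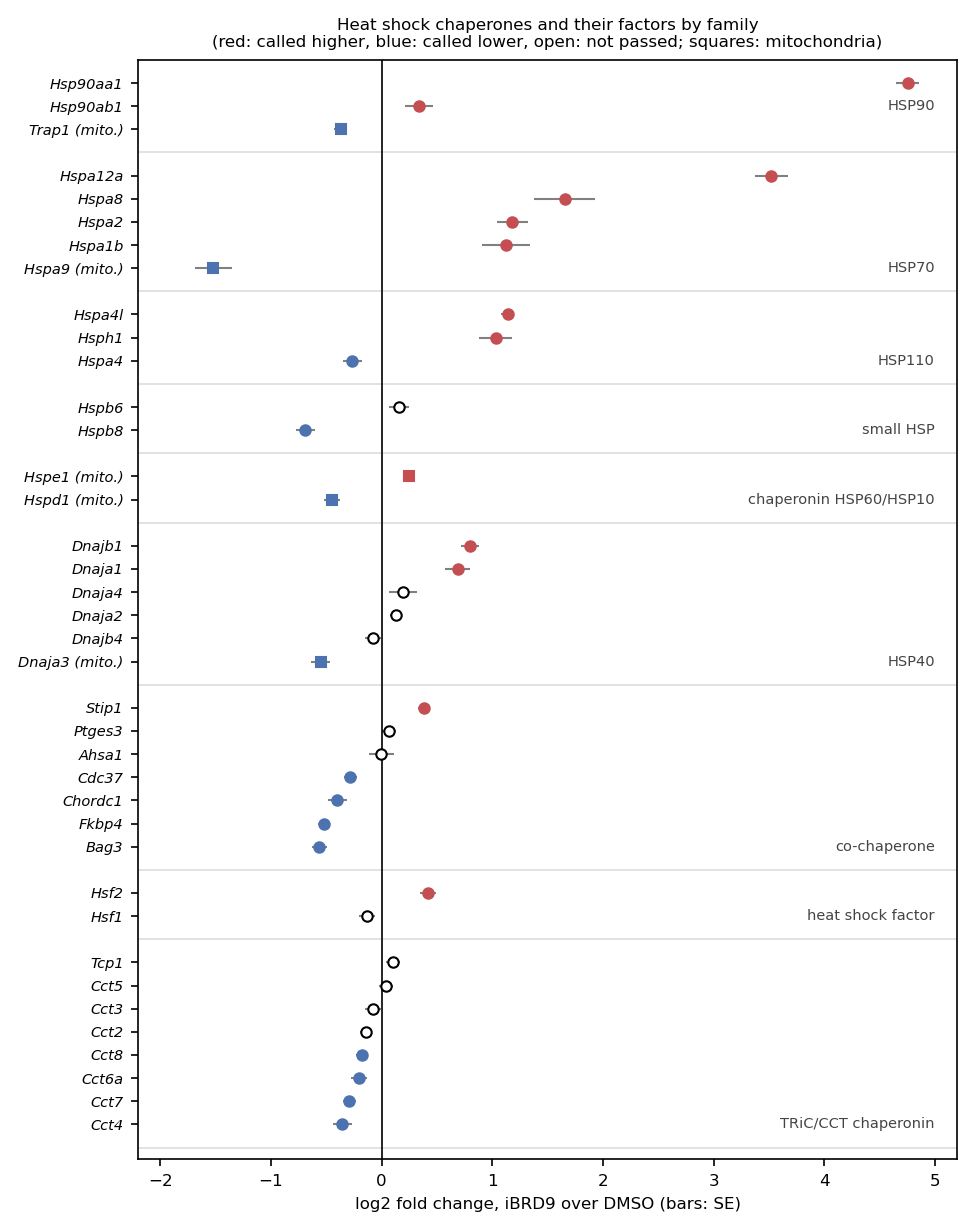
Log2 fold change of iBRD9 over DMSO (x axis) for the 38 tested members, grouped by family from top to bottom, with bars for the standard error, filled red for higher, filled blue for lower, open for not passed and square for mitochondrial. Cytosolic HSP70 and HSP110 genes lie to the right of 0 except Hspa4, the mitochondrial members lie to the left except Hspe1, and the TRiC/CCT subunits lie within 0.11 and -0.35.

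One DMSO library stood apart. Of the 14 members with a log2 fold change of at least 0.5 in size, DMSO replicate 1 lay on the iBRD9 side of the mean of DMSO replicates 2 and 3 in 13, and Hspb8 was the exception. The median position was 0.287 of the way to the iBRD9 mean on the log2 scale, with the highest value in Hspa1b (0.574). For Hsp90aa1 it was 0.00506 and for Hspa4l 0.0157, so the shift was not seen in every member. Without DMSO replicate 1, 17 members rose and 16 fell, and the calls over all genes grew too, with 37.0% higher and 37.0% lower of 13933 tested.

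**Figure D2:**
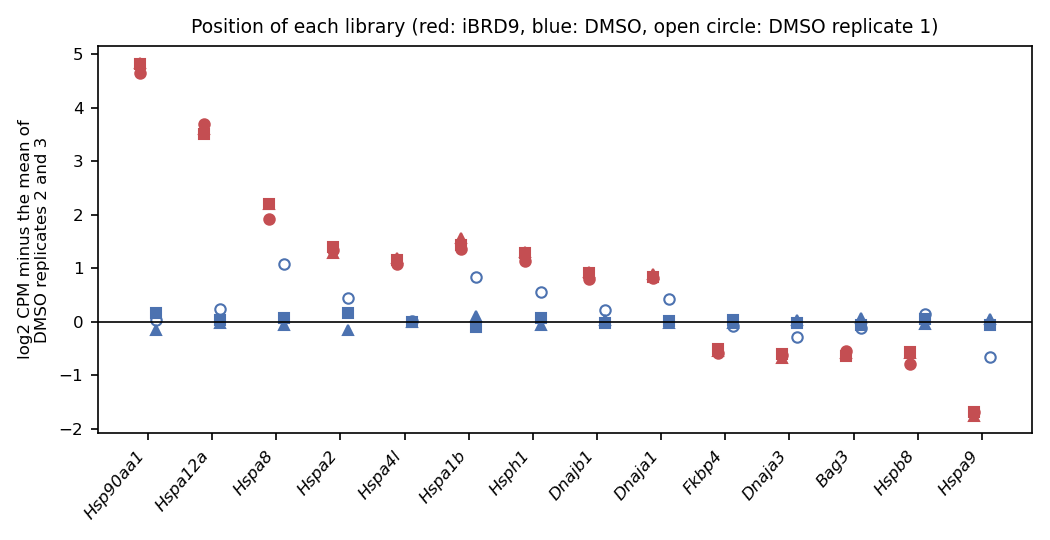
Log2 CPM of each library minus the mean of DMSO replicates 2 and 3 (y axis), for the 14 members with a log2 fold change of at least 0.5 in size (x axis). Circles, squares and triangles are replicates 1, 2 and 3. The open circle, DMSO replicate 1, is displaced toward the iBRD9 libraries for Hspa8, Hspa1b and Hspa9, and lies with the other DMSO libraries for Hsp90aa1 and Hspa4l.

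Promoter sequence is shown for 4 members that rose and for Hspa1a, whose upstream 150 bases hold a pair of GAA units, since these pairs are the building block of the element that heat shock factors bind. The windows are RefSeq's, on GRCm38.p6, from 250 bases before to 50 after each start site. They were matched by symbol for 35 of the 41 members, and the table had no entry for Hsp90aa1, Hsp90ab1, Hspa8, Hspa9, Hsf1 and Cct4. The pair was searched as GAANNTTC and TTCNNGAA, each its own reverse complement, so that 1 pass covers both strands. The forms with 3 units extend either pair by NN and 1 more unit in alternating orientation (GAA after TTC, TTC after GAA), on the gene's strand or its reverse, and so contain the pairs. At least 1 pair was found in 18 of 35 members (51.4%), where 17.0% of all genes in the same table hold one. The forms with 3 units were in 4 members (11.4%), where 0.662% of all genes hold one. A match describes letters and is not evidence of binding.

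Capitals mark the pairs in the stretches below, each ending 1 base before its start site and written 5′ to 3′ on the gene's strand. Hspe1 is at chr1:55087998-55088147 (plus), Hspa1a at chr17:34972157-34972306 (minus), Hspa1b at chr17:34959239-34959388 (minus), Hsph1 at chr5:149636337-149636486 (minus) and Dnaja1 at chr4:40722318-40722467 (plus).
Hspe1: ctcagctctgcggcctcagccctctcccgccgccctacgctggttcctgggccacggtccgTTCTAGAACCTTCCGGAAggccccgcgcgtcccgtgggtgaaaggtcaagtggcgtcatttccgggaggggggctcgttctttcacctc
Hspa1a: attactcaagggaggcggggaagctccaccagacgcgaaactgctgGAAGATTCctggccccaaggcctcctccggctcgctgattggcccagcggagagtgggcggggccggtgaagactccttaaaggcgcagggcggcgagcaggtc
Hspa1b: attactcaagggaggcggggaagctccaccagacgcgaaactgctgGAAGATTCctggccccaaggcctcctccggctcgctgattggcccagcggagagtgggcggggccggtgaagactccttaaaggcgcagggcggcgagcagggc
Hsph1: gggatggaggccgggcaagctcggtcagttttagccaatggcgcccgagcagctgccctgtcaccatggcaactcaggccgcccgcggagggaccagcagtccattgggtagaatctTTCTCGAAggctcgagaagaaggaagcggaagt
Dnaja1: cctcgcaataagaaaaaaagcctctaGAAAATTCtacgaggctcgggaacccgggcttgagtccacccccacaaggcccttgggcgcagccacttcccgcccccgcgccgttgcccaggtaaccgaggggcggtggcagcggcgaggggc

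The pairs were not limited to members that rose. Of members with a promoter in the table, a pair was found in 4 of the 10 that rose (Dnaja1, Hspa1b, Hspe1 and Hsph1). These 10 include Hspa12a, described with no test, and leave out Hsp90aa1, Hsp90ab1 and Hspa8. A pair was found in 7 of the 12 that fell (Bag3, Cct6a, Cdc37, Chordc1, Fkbp4, Hspb8 and Hspd1), a count that leaves out Hspa9 and Cct4, and in 5 of the 10 that did not pass. The 3-unit forms were in Hspe1 and Hsph1, which rose, and in Hspd1 and Chordc1, which fell. Those of Hspe1 and Hspd1 are the same bases between these divergent genes. That of Hsph1 lies 15 or 36 bases after its start sites, outside the stretch printed.

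The heat shock factors came first in the pathway. Hsf1 (ENSMUSG00000022556), the stress-activated factor, stood at 71.9, 70.0 and 71.0 CPM with iBRD9 and 70.1, 81.3 and 81.7 CPM with DMSO. The groups overlapped, since DMSO replicate 1 lay with the iBRD9 libraries. The log2 fold change was -0.13 (SE 0.073), which did not pass the test. Without DMSO replicate 1 it was -0.21 and passed (adjusted p = 0.000324, against 0.769 with library size alone). Hsf2, a relative that can form mixed trimers with HSF1, rose to 36.5, 36.4 and 32.0 CPM with iBRD9, against 26.4, 25.9 and 26.2 CPM with DMSO (log2 fold change 0.42, SE 0.075). All iBRD9 libraries lay above all DMSO libraries.

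The stress-inducible cytosolic HSP90 gene had a far larger change than its constitutive relative. Hsp90aa1 (ENSMUSG00000021270) had 738, 828 and 841 CPM with iBRD9, against 29.9, 32.9 and 26.3 CPM with DMSO. The groups were far apart and every DMSO library was low. The log2 fold change was 4.75 (SE 0.103), or 27.0-fold, and it is given with no test. Hsp90ab1 (ENSMUSG00000023944), the constitutive form, had 2424, 2606 and 2647 CPM with iBRD9 and 2468, 1909 and 1698 CPM with DMSO. DMSO replicate 1 lay within the iBRD9 range, so the groups overlapped. The rise was 0.34 on the log2 scale (SE 0.127, adjusted p = 0.0463) and the call was lost without any 1 of the other libraries, from 0.22 without DMSO replicate 3 (adjusted p = 0.136) to 0.37 without iBRD9 replicate 1 (adjusted p = 0.0780), with the replicate block (adjusted p = 0.0531) and with no filter on low counts (adjusted p = 0.0884). Without DMSO replicate 1 it was 0.50 (adjusted p = 3.24e-08). The highest adjusted p, 0.143, came without DMSO replicate 2.

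Per kilobase of transcript, Hsp90aa1 stood at 0.277 ± 0.00680 of the level of Hsp90ab1 with iBRD9 and at 0.0132 ± 0.00229 with DMSO (SD, n = 3). Levels per length use the length of Ensembl's first listed transcript in GENCODE M21. In every library Hsp90aa1 lay below Hsp90ab1.

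Hsp90aa1 has processed pseudogenes, copies made from its mRNA, so reads could be split among them. Aligning member transcripts to GENCODE M21 found 5 pseudogene copies of at least 90% identity over at least 200 bases, and all 5 had a row in the table. Gm12346, 99.5% identical over 2255 bases, had 131, 98 and 93 counts with iBRD9 and 4, 1 and 6 with DMSO. The copies together held 327 counts with iBRD9, 0.514% of the counts of gene and copies (95% exact binomial interval 0.460% to 0.572%). With DMSO they held 11 counts, 0.510% (0.255% to 0.910%). These intervals cover counting error only. The share on the copies was alike in both groups, and with the copies added the log2 ratio of mean CPM was 4.76, as it was without them. Reads that fit several places and were discarded are not seen in these counts. How such reads were treated, and whether in the same way in both groups, is not given in the sources used here, so processing and treatment cannot be told apart for this gene.

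Among the cytosolic HSP70 genes Hspa8, Hspa2 and Hspa1b rose, with the constitutive Hspa8 by far the most abundant. The log2 fold changes of these 3 members ran from 1.12 to 1.66, and Hspa12a is described with no test. Hspa8 (ENSMUSG00000015656), the HSC70 protein that serves folding and clathrin uncoating in unstressed cells, had 1303, 1583 and 1579.9 CPM with iBRD9, against 727, 361 and 329 CPM with DMSO. Every iBRD9 library lay above every DMSO library, and DMSO replicate 1 was the highest of its group. The log2 fold change was 1.66 (SE 0.276), with 2.10 without DMSO replicate 1 and 1.45 without DMSO replicate 3. Its 12 pseudogene copies by the same criteria held 8 counts with iBRD9 and 3 with DMSO over the 8 that had a row.

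The inducible HSP70 pair was low. Hspa1b, which heat shock raises strongly, had 9.55, 10.1 and 11.0 CPM with iBRD9 and 6.64, 3.47 and 4.005 CPM with DMSO. The groups did not overlap, with DMSO replicate 1 again the highest of its group, and the log2 fold change was 1.12 (SE 0.218). Its neighbour Hspa1a had 4, 3 and 3 counts with iBRD9 and 4, 2 and 1 with DMSO, too few for a test. Their transcripts were 99.2% identical over 2201 aligned bases, so the split of reads between the pair is uncertain. Of the 150 promoter bases printed for each, 1 differed.

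Hspa2 and Hspa12a were also low. Hspa2, known for its role in sperm formation, had 21.04, 22.1 and 20.4 CPM with iBRD9, against 11.3, 9.31 and 7.46 CPM with DMSO (log2 fold change 1.18, SE 0.139). Hspa12a, a distant relative of the family, had 10.6, 9.24 and 9.88 CPM with iBRD9 and 0.955, 0.828 and 0.801 CPM with DMSO. Its DMSO counts were 22, 21 and 19 reads, so the log2 fold change of 3.52 (SE 0.149), given with no test, rests on few reads. Both genes had groups that did not overlap.

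Of the HSP110 proteins, the nucleotide exchange factors of HSP70, Hspa4l and Hsph1 rose. Hspa4l had 122, 128 and 133 CPM with iBRD9, against 58.4, 57.7 and 57.7 CPM with DMSO (log2 fold change 1.14, SE 0.058). The DMSO libraries were nearly equal here, DMSO replicate 1 included. Hsph1 had 134, 149 and 149.9 CPM with iBRD9, against 89.9, 63.8 and 58.3 CPM with DMSO (1.03, SE 0.146). Hspa4, the most abundant of the 3 per length, had 377, 392 and 391 CPM with iBRD9 and 402, 483 and 509 CPM with DMSO. Its fall of 0.27 on the log2 scale (adjusted p = 0.0271) was not called with library size alone (-0.16, adjusted p = 0.0963), nor without any 1 library other than DMSO replicate 1, where it ran from -0.28 without iBRD9 replicate 2 to -0.20 without DMSO replicate 3. Per length, Hspa4l stood at 0.555 ± 0.0137 of Hspa4 with iBRD9 and at 0.212 ± 0.0285 with DMSO (SD, n = 3).

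Among the HSP40 proteins of the cytosol, Dnajb1 and Dnaja1 rose and the other 3 did not pass. Dnajb1, a main partner of inducible HSP70, had 61.7, 66.8 and 68.0 CPM with iBRD9, against 41.5, 34.9 and 36.3 CPM with DMSO (log2 fold change 0.80, SE 0.081). Dnaja1, a farnesylated HSP40, had 280.3, 287 and 296 CPM with iBRD9, against 216, 162 and 157 CPM with DMSO (0.69, SE 0.113). In both genes the groups did not overlap and DMSO replicate 1 was the highest DMSO library. Dnaja2 had a value of 0.13 (adjusted p = 0.0640), and it passed under 4 other settings, such as library size alone (0.24, adjusted p = 0.00540), while the highest adjusted p was 0.237, without iBRD9 replicate 2. Dnaja4 had 0.19 and Dnajb4 -0.08. Dnajb4 turned to 0.027 with library size alone. Exons of Dnaja4 overlap those of Wdr61 on the other strand over 44.1% of their length, so its counts are uncertain without strand. Dnaja1 has 3 pseudogene copies, which held 271 counts with iBRD9 and 125 with DMSO.

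**Figure D3:**
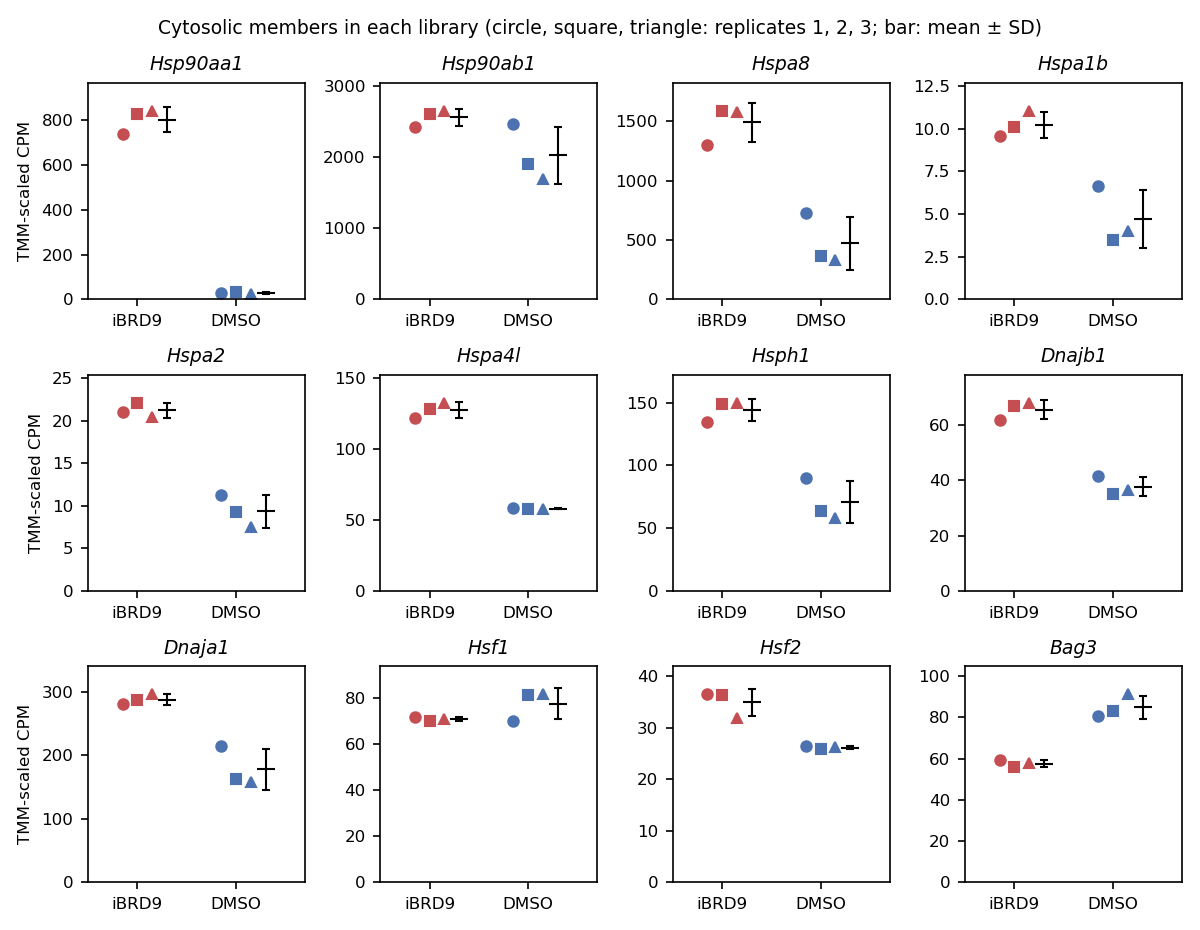
TMM-scaled CPM of 12 cytosolic members and factors in each library (y axis, from 0), iBRD9 left of DMSO, with circles, squares and triangles for replicates 1, 2 and 3 and a bar for mean ± SD (n = 3). Hsp90aa1, Hspa8 and Hspa4l separate the groups, Hsp90ab1 and Hsf1 overlap through DMSO replicate 1, and Bag3 is lower with iBRD9.

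The co-chaperones, which guide clients and ATP use of HSP70 and HSP90, moved in both directions. Of 7 members, 1 rose, 4 fell and 2 did not pass, where 29.8% of all tested genes rose and 30.9% fell. Without DMSO replicate 1, 3 of them rose, where 37.0% of all tested genes rose. Stip1 (HOP), which links HSP70 to HSP90, had 459.8, 492 and 497 CPM with iBRD9, against 373, 372 and 366 CPM with DMSO (log2 fold change 0.38, SE 0.055). Bag3, which couples HSP70 to small heat shock proteins and autophagy, had 59.2, 55.8 and 57.8 CPM with iBRD9, against 80.7, 83.1 and 91.3 CPM with DMSO (-0.56, SE 0.067). The immunophilin gene Fkbp4 fell by 0.52 on the log2 scale, Chordc1 by 0.40 and the kinase adaptor Cdc37 by 0.28. In these 5 genes the groups did not overlap.

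Ptges3 (p23), which stabilises the closed form of HSP90, differed by 0.07 on the log2 scale (adjusted p = 0.353). It passed without DMSO replicate 1 (0.11, adjusted p = 0.0261), and the highest adjusted p was 0.762, without DMSO replicate 3. Ahsa1, the activator of its ATPase, had 77.0, 81.2 and 84.8 CPM with iBRD9 and 95.8, 78.3 and 69.4 CPM with DMSO. The groups overlapped, with DMSO replicate 1 the highest library of all. The log2 fold change was -0.0029 (adjusted p = 0.983). Without DMSO replicate 1 it was 0.12 and passed (adjusted p = 0.0499), and the highest adjusted p was 0.991, with DESeq2.

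Small heat shock proteins, which hold unfolded clients without ATP, did not rise in the test. Hspb8, the partner of BAG3, had 34.4, 40.2 and 39.8 CPM with iBRD9, against 65.3, 61.4 and 57.4 CPM with DMSO (log2 fold change -0.69, SE 0.083). Hspb6 had 24.1, 24.6 and 27.2 CPM with iBRD9 and 20.9, 22.8 and 24.3 CPM with DMSO (0.16, adjusted p = 0.149), with groups that overlapped, and library size alone made it a call (0.26, adjusted p = 0.0220), while the adjusted p reached 0.429 without iBRD9 replicate 3. Hspb1, a target of heat shock factor 1 in many cells, had 5, 1 and 5 counts with iBRD9 and 2, 2 and 1 with DMSO, below the filter. Its transcript was 99.8% identical to the pseudogene Hsp25-ps1 over 441 bases and to Gm9817 over 477 bases, so its count is uncertain.

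The mitochondrial members fell, except Hspe1. Of 5 members, 4 fell and 1 rose, where 30.9% of all tested genes fell and 29.8% rose. The members' summed level was 1672 ± 32.1 CPM with iBRD9 and 3449 ± 556 CPM with DMSO (SD, n = 3). Most of that difference was in Hspa9, and the other 4 summed to 847 ± 12.9 CPM with iBRD9 and 1085 ± 32.5 CPM with DMSO. Hspa9 (ENSMUSG00000024359), the mitochondrial HSP70 that pulls proteins through the inner membrane, had the highest level of the 5. It had 837, 839.8 and 796 CPM with iBRD9, against 1698, 2586 and 2809 CPM with DMSO (log2 fold change -1.52, SE 0.165). The groups did not overlap and DMSO replicate 1 lay between the iBRD9 libraries and the other DMSO libraries. Its partner gene Dnaja3 had 83.1, 84.1 and 79.9 CPM with iBRD9 and 105, 126 and 131 CPM with DMSO (-0.55, SE 0.085). Trap1, the mitochondrial HSP90, had 159, 157 and 159 CPM with iBRD9 and 191, 209 and 214 CPM with DMSO (-0.37, SE 0.059). Transcripts encoded by mitochondrial DNA took 3.15%, 2.60% and 2.57% of counts with iBRD9 and 3.71%, 3.46% and 3.42% with DMSO, and their part in these results was not tested.

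The chaperonin subunits parted. Hspd1 (HSP60), the barrel, had 470.2, 485 and 472 CPM with iBRD9, against 707, 639.7 and 601 CPM with DMSO, a log2 fold change of -0.45 (SE 0.070). Hspe1 (HSP10), its lid, had 126, 136 and 130.4 CPM with iBRD9, against 115, 108 and 108 CPM with DMSO, a log2 fold change of 0.25 (SE 0.057). The groups did not overlap in either gene. The genes lie head to head, with 215 bases between the Hspe1 start site and the nearest divergent Hspd1 start site, and the 3-unit elements in the stretch printed for Hspe1 are the ones found for Hspd1. Per length, Hspe1 stood at 0.860 ± 0.0181 of Hspd1 with iBRD9 and at 0.532 ± 0.0274 with DMSO (SD, n = 3). Their exons overlap on opposite strands over 112 bases, so reads there cannot be assigned without strand. Pseudogene copies held 56 counts for Hspd1 and 13 for Hspe1 with iBRD9, and 84 and 10 counts with DMSO.

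**Figure D4:**
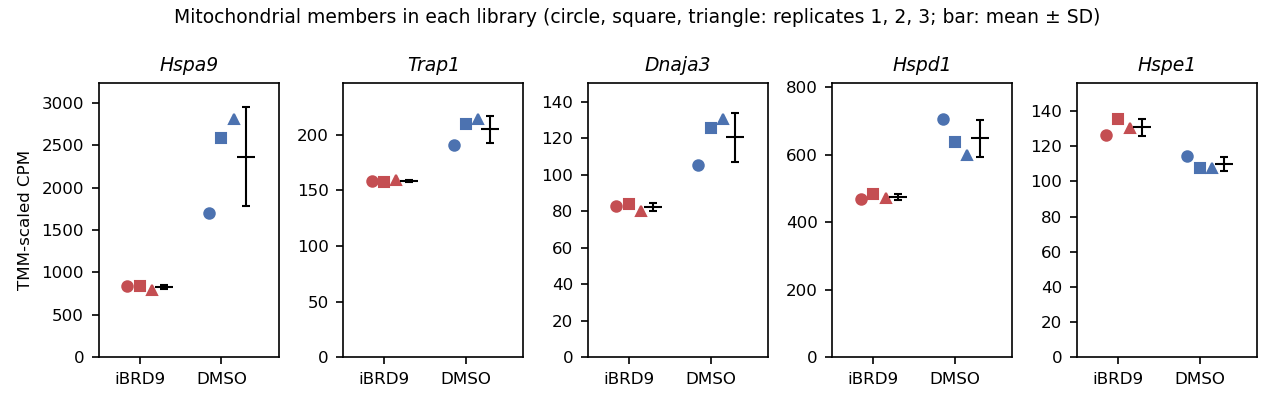
TMM-scaled CPM of the 5 mitochondrial members in each library (y axis, from 0), iBRD9 left of DMSO, with circles, squares and triangles for replicates 1, 2 and 3 and a bar for mean ± SD (n = 3). Hspa9, Trap1, Dnaja3 and Hspd1 are lower in every iBRD9 library than in any DMSO library, and Hspe1 is higher.

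TRiC/CCT subunits moved little. Of 8 subunits 4 fell, 0 rose and 4 did not pass, where 30.9% of all tested genes fell and 29.8% rose. The subunits' log2 fold changes ran from -0.35 to 0.11. Their summed level was 2450.5 ± 106 CPM with iBRD9 and 2676 ± 58.8 CPM with DMSO (SD, n = 3). Cct4 had 149, 156 and 155 CPM with iBRD9, against 169, 204 and 213 CPM with DMSO (log2 fold change -0.35, SE 0.086). Cct7 also fell (-0.29), with groups that did not overlap in either gene. The falls of Cct6a (-0.21, adjusted p = 0.0381) and Cct8 (-0.17, adjusted p = 0.0194) were not called with library size alone (-0.10 and -0.07) or without any 1 iBRD9 library or DMSO replicate 2, which left 2 subunits called lower. Over all genes, leaving out 1 iBRD9 library or DMSO replicate 2 gave 3558 to 3630 falls, against 4205 in the main fit. Cct6a was also not called without DMSO replicate 3 or with the filter at 1 CPM. Exons of Cct6a overlap those of Psph on the other strand over 12.5% of their length, and Psph had 3174 counts with iBRD9 and 13276 with DMSO, so the Cct6a value is uncertain without strand. Tcp1 had 0.11, Cct5 0.04, Cct3 -0.08 and Cct2 -0.14. Exons of Tcp1 overlap those of Acat3 on the other strand over 11.4% of their length, and Acat3 had 45 counts with iBRD9 and 21 with DMSO. The Tcp1 transcript was also 98.7% identical to Acat2 over 445 bases. Acat2 had 6051, 4749 and 4735 counts with iBRD9 and 4329, 2732 and 2011 with DMSO, so the Tcp1 value is uncertain too. With library size alone Tcp1 and Cct5 passed as higher and Cct3 turned to 0.028, and without DMSO replicate 1 Tcp1 passed as higher, Cct2 as lower, and Cct5 turned to -0.0088. With limma-voom Cct2 also passed as lower (adjusted p = 0.0490).

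The complex holds its subunits in equal number, while their mRNA levels per length were spread. Cct5 was the highest subunit in every library, at 237 ± 9.09 CPM per kb with iBRD9 and 231 ± 10.9 CPM per kb with DMSO (SD, n = 3). Cct4 was the lowest in every iBRD9 library and in DMSO replicates 1 and 2, at 93.7 ± 2.07 CPM per kb with iBRD9 and 119.7 ± 14.2 CPM per kb with DMSO, and Cct3 was the lowest in DMSO replicate 3. The highest subunit was 2.49 to 2.56 times the lowest with iBRD9 and 1.91 to 2.11 times with DMSO. With iBRD9, the neighbours Cct2 and Tcp1 differed by less than their SD (156 ± 7.22 and 154 ± 7.06 CPM per kb).

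**Figure D5:**
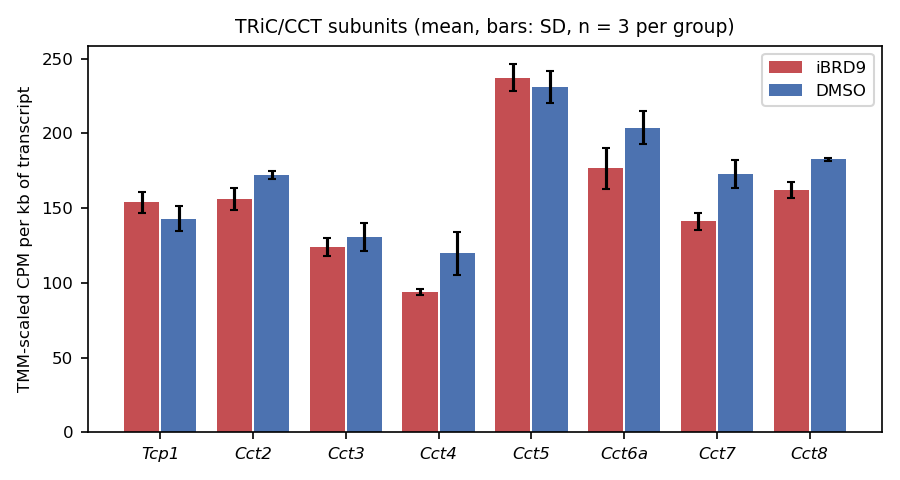
TMM-scaled CPM per kilobase of transcript (y axis, from 0) of the 8 TRiC/CCT subunits, iBRD9 in red left of DMSO in blue, with bars for the SD (n = 3). Cct5 is the highest and Cct4 the lowest by group mean, and Cct4 has the widest gap between the groups relative to its level.

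Genes that work with the members were read from 6 lists. Of their 88 tested genes, 20 rose, 33 fell and 35 did not pass, with a median log2 fold change of -0.05, where 29.8% of all tested genes rose and 30.9% fell. With library size alone 27 rose and 25 fell, where 36.8% of all tested genes rose and 24.9% fell. Among partners of HSP70 and HSP40, 5 of 21 rose and 8 fell. Dnajb5 (0.71) and the ubiquitin ligase gene Stub1 (0.56) had the largest rises, and Dnajb2 (-0.82) and Bag5 (-0.71) the largest falls. The list's counts moved with single libraries, to 3 rises without iBRD9 replicate 2, iBRD9 replicate 3 or DMSO replicate 2, and to 5 falls without any 1 library other than DMSO replicate 1. Calls over all genes dropped too under these settings. They gave 3235 to 3319 rises and 3558 to 3805 falls, against 4057 and 4205 in the main fit. Among HSP90 co-chaperones outside the members, 7 of 22 rose and 9 fell. Fkbp5, an immunophilin induced by glucocorticoids, had 57.5, 66.8 and 69.4 CPM with iBRD9, against 42.7, 40.2 and 37.6 CPM with DMSO (0.68), and Pih1d1 rose by 0.71 on the log2 scale. Sugt1 (-0.52) and Nudcd2 (-0.49) had the largest falls.

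Prefoldin, helpers of TRiC and tubulin cofactors mostly did not pass. Of 14 genes 3 rose and 2 fell, where 29.8% of all tested genes rose and 30.9% fell. The tubulin cofactor genes Tbca (0.68) and Tbcb (-0.39) moved apart, as did the prefoldin genes Vbp1 (0.28) and Pfdn2 (-0.29). Without DMSO replicate 1 the list had 5 rises and 4 falls, where 37.0% of all tested genes rose and 37.0% fell.

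Of mitochondrial partners and proteases 9 of 18 fell and 3 rose, where 30.9% of all tested genes fell and 29.8% rose. Lonp1, the matrix protease, had 255, 232 and 241 CPM with iBRD9, against 489, 724 and 799 CPM with DMSO (log2 fold change -1.47, SE 0.160). Atf5, a transcription factor of the mitochondrial unfolded protein response, had 14.8, 16.2 and 15.5 CPM with iBRD9, against 32.3, 51.4 and 56.3 CPM with DMSO (-1.59, SE 0.187). In both genes the groups did not overlap and DMSO replicate 1 was the lowest DMSO library, as for Hspa9. Yme1l1 (0.40) and Pam16 (0.31) had the largest rises. Without DMSO replicate 2, 1 gene of the list rose, where 3235 of all 13895 tested genes rose.

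Of 4 tested small heat shock proteins outside the members, Cryab (αB-crystallin) fell, with 68.7, 74.9 and 71.8 CPM with iBRD9, against 107, 124 and 132 CPM with DMSO (-0.75, SE 0.084), and the other 3 did not pass. In a list of other heat shock factor genes and targets, which also held cold-inducible genes, 2 of 9 rose and 4 fell. Over all tested genes 29.8% rose and 30.9% fell. The cold-inducible genes were Cirbp, which rose, and Rbm3, which fell (-0.26). Hmox1, the heme oxygenase gene of the oxidative and heat stress responses, had 71.7, 66.0 and 66.4 CPM with iBRD9, against 165, 185 and 185 CPM with DMSO (-1.39, SE 0.068). The collagen chaperone gene Serpinh1 fell by 0.66 on the log2 scale. The cold-inducible RNA binding protein gene Cirbp (0.69) and Hsf4 (0.28), a factor known from the lens, rose.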

How the data were processed

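The authors deposited read counts for 35275 Ensembl gene rows, which were used as they are. Per the submitters' processing notes, CASAVA 1.8.2, Bowtie2 2.4.5 and GRCm39 were used. For the counter, its annotation, its strand setting and the handling of reads that fit several places, the sources used here give nothing. Per the labels' protocols, poly(A) RNA was selected and libraries were made with random hexamers. Gene names came from GENCODE M21 (34490 of 35275 rows matched), whose build is older, so coordinates are printed for RefSeq promoters on GRCm38.p6 only. Samples were grouped by treatment. The fit of all genes used edgeR 4.0.16 in R 4.3.3 with TMM, filterByExpr (minimum count 10), the robust quasi-likelihood test and Benjamini-Hochberg adjustment. The standard error is the log2 fold change over the square root of F. All tests are two-sided. The procedure was tested on simulated data. Alternatives included DESeq2 1.42.0 and limma-voom (limma 3.58.1). Copies were found with blastn 2.17.0. Figures were drawn with matplotlib 3.10.9. Precision at this depth follows from 3 libraries per group (biological coefficient of variation 0.0921), and p-values measure the spread between these samples, whose separate cultures the labels do not detail. No replicate pair was a duplicate (chi-square per degree of freedom 1.93 to 37.5). Members and lists were chosen with earlier results of these data known. Values in every library are given for the called member with the largest rise and fall in each family and for Hsp90aa1, Hspa12a, Hspa8, Hsp90ab1, Hspa1a, Hspa1b, Hspd1, Hspe1, Hsf1 and Hsf2, and up to 2 higher and 2 lower called genes are named per companion list, if their mean log2 CPM reached 1. Other per-library values were chosen after they were seen.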

Additional observations from a re-analysis of the deposited data

How the results depend on the processing

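Leaving aside Hsp90aa1 and Hspa12a, 22 of 36 tested members kept their direction and side of the threshold under all 14 alternatives, Hspa8, Hspa9, Hspd1 and Hspe1 among them. Leaving out 1 library gave 12 to 17 members higher and 11 to 16 lower, 14 to 24 companion genes higher and 27 to 37 lower, and a members' median of -0.023 to 0.049. Over all genes these fits gave 3235 to 5159 higher and 3558 to 5152 lower, of 13789 to 13933 tested. The main fit gave 4057 higher and 4205 lower of 13602. Library size alone, which moved the median of all genes to 0.11, moved the members' median to 0.12 and gave 17 members higher and 11 lower, and 27 companion genes higher and 25 lower. With an adjusted p under 0.01, 13 companion genes rose, a threshold at which calls over all genes were not counted. Of the members that changed sign, Ahsa1 passed without DMSO replicate 1 (0.12, adjusted p = 0.0499) and Cct5 with library size alone (0.14, adjusted p = 0.0394). Library size alone turned Dnajb4 (0.027), Ahsa1 (0.10) and Cct3 (0.028). Ahsa1 also turned with the filter at 1 CPM (0.018), the replicate block (0.0076) and limma-voom (0.0084). Leaving out 1 library gave -0.11 to 0.12 for Ahsa1 and -0.0088 to 0.067 for Cct5. The cause of these changes was not tested. Same-numbered samples deviated with correlations of 0.118, 0.0599 and 0.0248. Such small values, with 3 libraries per group, cannot tell whether the numbers pair the samples. The replicate block left 36 of 38 members as they were, with Ahsa1 turned and Hsp90ab1 no longer called. Samples numbered 1 and 2 correlated best with their own number, while iBRD9 replicate 3 did so with DMSO replicate 2 (0.0403) and DMSO replicate 3 with iBRD9 replicate 2 (0.0469). Hspa1a and Hspb1 had too few reads for a test. Low expression, depth and the loss of reads that fit several places were not told apart.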
